A study of Mus musculus with 8 samples.

Results

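The cytochrome P450 genes of families 1 to 4 were compared between 4 normoxic and 4 hypoxic mouse lungs. The members were all genes whose symbol starts with Cyp1, Cyp2, Cyp3 or Cyp4 followed directly by a letter and a number, with symbols marked as pseudogenes by -ps left out, which gave 79 genes among 25428 measured probe sets. They comprised 3 genes of family 1, 48 of family 2, 8 of family 3 and 20 of family 4. Cyp2d13 and Cyp2j7 of family 2 are annotated as pseudogenes but lack that mark, and they stayed among the 79. Each lung came from a different male Nfat5fl/fl mouse, in which both copies of the transcription factor gene Nfat5 are flanked by loxP sites. According to the study's methods the mice were bred with the smooth muscle SM-MHC-CreERT2 line and, as controls, received the solvent miglyol in place of tamoxifen as young adults, so that Nfat5 was not deleted in either group. Mice A, B, C and D breathed 10% oxygen for 7 days and mice F, G, H and I breathed normal air. RNA from lung lobes of each mouse was hybridised to 1 GeneChip Mouse Gene 2.0 ST array, and each value below is a log2 signal of 1 probe set per gene.

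Cytochrome P450 enzymes are haem proteins of the endoplasmic reticulum that insert an oxygen atom from molecular oxygen into lipids, drugs and inhaled chemicals, with electrons supplied by the reductase Por. Family 1 is induced through the aryl hydrocarbon receptor, whose partner Arnt is also the partner of the hypoxia-inducible factors. Families 2 and 3 oxidise foreign compounds, steroids and arachidonic acid, mostly in the liver, although some members are made mainly in airway epithelium. Family 4 oxidises the terminal carbon of fatty acids and eicosanoids.

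Lung lobes hold all cell types of the lung, so fewer cells of a type and less RNA per cell cannot be told apart. Signals of different probe sets do not compare amounts of RNA, because probes bind with different strength. A rough background level of 3.54 was taken from 1365 probe sets for odorant and vomeronasal receptors, genes used mainly in the nose. By this level 22 members were above background and 57 were not, while 15888 of all 25428 probe sets were above it. Several P450 subfamilies hold near-identical copies (Cyp2a, Cyp2b, Cyp2c, Cyp2d, Cyp3a and Cyp4a), and signals within such a subfamily may be shared between copies. The deposited values of mouse F were the only ones not rounded to a fixed step, with 0.578% of values on that step against at least 96.6% on the other arrays. Skeletal muscle markers averaged 6.93 and 6.82 in the normoxic mice F and G and between 3.64 and 4.57 in the other 6 mice, so counts are also given without both mice.

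No member passed the limma test after Benjamini-Hochberg adjustment over all probe sets, and neither did any other probe set (0% of 25428). At an unadjusted p under 0.05 there were 5 members (6.33%), against 8.5% of all probe sets. Of these, 2 were higher in hypoxia (Cyp3a41b and Cyp4a31), where the share over all probe sets was 5.34%, and 3 were lower (Cyp1a1, Cyp2e1 and Cyp3a11), where it was 3.15%. The 4 hypoxic values did not overlap the 4 normoxic ones for 4 members (5.06%, against 4.62% of all probe sets). Cyp2c54 and Cyp4a31 were separated upwards, beside 3.01% of all probe sets, and Cyp1a1 and Cyp4a12b downwards, beside 1.61%. These shares lay close to those of the whole array. Means were lower in hypoxia for 44 members and higher for 35, and the median log2 difference between hypoxia and normoxia was -0.03 over the members and -0.00 over all probe sets. Without mouse G, 8 members had an unadjusted p under 0.05 and 8 had separated groups, beside 9.14% and 8.80% of all probe sets. Without mouse H there were 7 separated members, beside 9.88%. Without mice F and G the counts were 11 and 16, beside 13.1% and 22.1%.

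**Figure D1:**
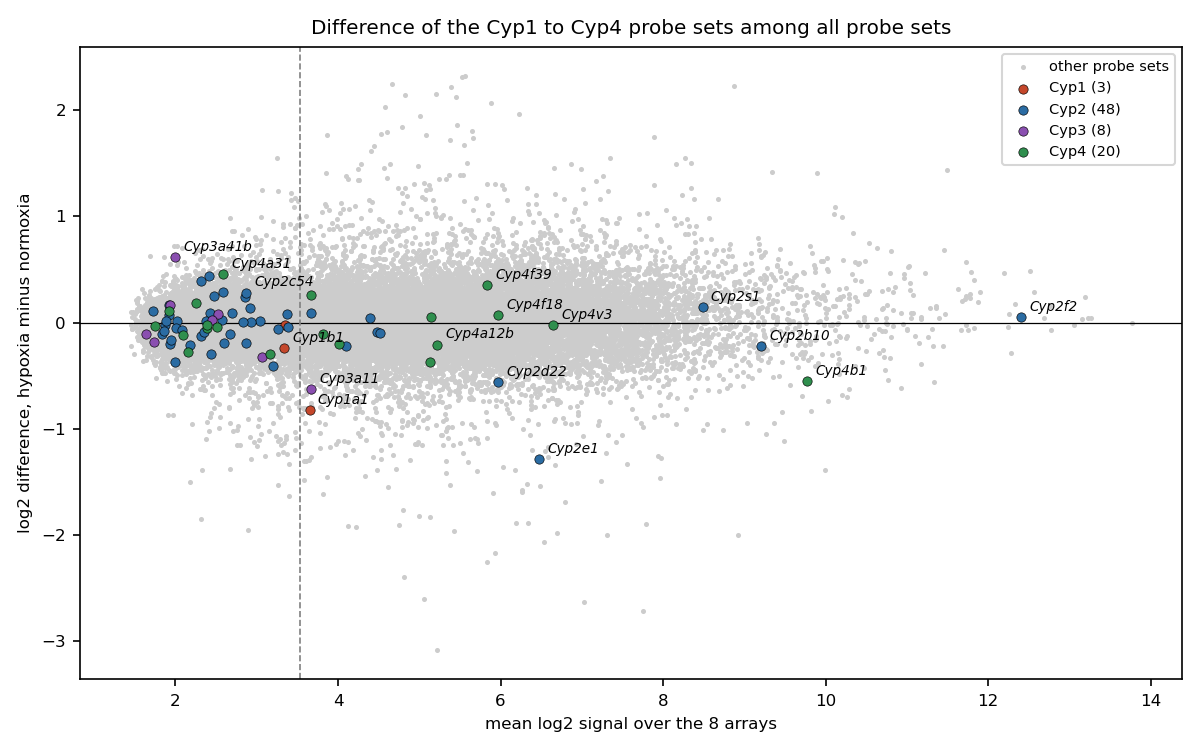
Log2 difference (hypoxia minus normoxia, vertical axis) against the mean log2 signal over the 8 arrays (horizontal axis), with 1 point per probe set, the members coloured by family and the others in grey. The dashed line marks the background level of 3.54, and most members lie to its left, while Cyp2e1 lies lowest of the members at -1.29.

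Family 1 was represented by Cyp1a1, Cyp1a2 and Cyp1b1, and only Cyp1a1 lay above background. Cyp1a1 oxidises polycyclic aromatic hydrocarbons and is the classical target of the aryl hydrocarbon receptor. Its log2 signal was 3.47, 3.98, 4.26 and 4.54 in the normoxic mice F, G, H and I, and 3.45, 2.71, 3.43 and 3.37 in the hypoxic mice A, B, C and D. Every hypoxic mouse lay below every normoxic one, but mouse F exceeded mouse A only in the second decimal. The group means were 4.06 ± 0.45 (SD, n = 4) and 3.24 ± 0.35 (SD, n = 4), a difference of -0.83 (SE 0.25, 95% interval -1.36 to -0.29). The adjusted p from limma was 0.323, and an exact permutation test, two-sided over the 70 possible assignments, gave p = 0.0286, the smallest value that 4 mice against 4 allow. Cyp1a1 was above background on 3 normoxic arrays and on 0 hypoxic arrays, so the hypoxic mean is only bounded. Against the background level, the signal was at least 1.44-fold lower in hypoxia.

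The family also carries a gene of liver, Cyp1a2, which oxidises caffeine, and Cyp1b1, a steroid- and hydrocarbon-oxidising enzyme of mesenchymal cells. Cyp1b1 read 3.44, 3.17, 3.77 and 3.42 in mice F, G, H and I, and 3.27, 3.04, 3.40 and 3.13 in mice A, B, C and D. Its groups overlapped, and 7 of its 8 values lay below the background level. The difference was -0.24 (SE 0.17, limma adjusted p = 0.749). Cyp1a2 stayed between 3.26 and 3.50 on all arrays.

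The promoters of Cyp1a1 and Cyp2e1, the members with the smallest p-values, are shown as the 250 bases before the annotated transcript start, 5′ to 3′ on the gene's strand, from RefSeq on mouse build GRCm38.p6. Capitals mark GCGTG (the core bound by the aryl hydrocarbon receptor with Arnt), ACGTG (the core of hypoxia response elements) and TATAA (the core of the TATA box), each searched on both strands. The Cyp1a1 window is chr9:57697363-57697612 on the plus strand and the Cyp2e1 window is chr7:140763569-140763818 on the plus strand.
Cyp1a1: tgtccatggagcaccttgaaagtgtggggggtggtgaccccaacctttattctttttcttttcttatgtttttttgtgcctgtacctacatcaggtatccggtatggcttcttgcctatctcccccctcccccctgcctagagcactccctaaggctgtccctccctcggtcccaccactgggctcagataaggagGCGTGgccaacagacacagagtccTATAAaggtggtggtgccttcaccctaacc
Cyp2e1: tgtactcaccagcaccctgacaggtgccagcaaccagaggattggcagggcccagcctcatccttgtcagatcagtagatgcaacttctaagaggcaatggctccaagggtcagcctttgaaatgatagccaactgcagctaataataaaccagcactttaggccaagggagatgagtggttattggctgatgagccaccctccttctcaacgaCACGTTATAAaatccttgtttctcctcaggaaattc
Counted from the transcript start, GCGTG began at base -54 and TATAA at base -30 of the Cyp1a1 window. In the Cyp2e1 window ACGTG lay on the reverse strand from base -36, directly ahead of TATAA from base -31, and a TATAA on the reverse strand from base -32 overlapped both. Windows were at hand for 63 of the 79 members. GCGTG was found in 12 of these 63 genes, beside 28.2% of 32851 promoter windows of the same length. ACGTG was found in 3 of the 63, beside 16.6% of windows, and TATAA in 33 of the 63, beside 22.8%. Such matches describe the letters and not binding.

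Cyp2e1, the ethanol-oxidising enzyme that is abundant in liver and is also made in fat, had the most negative difference of all members. Its log2 signal was 7.30, 6.26, 8.12 and 6.79 in the normoxic mice F, G, H and I, and 6.15, 5.04, 6.33 and 5.79 in the hypoxic mice A, B, C and D. The groups overlapped only because mouse G lay just below mouse C. The means were 7.12 ± 0.79 and 5.83 ± 0.57 (SD, n = 4 each), a difference of -1.29 (SE 0.38, 95% interval -2.12 to -0.46), or a 2.45-fold lower signal in hypoxia. This did not pass after adjustment (limma adjusted p = 0.321), and the exact permutation test gave p = 0.0571. The unadjusted p stayed under 0.05 for both Cyp2e1 and Cyp1a1 in all 15 alternative analyses, and the adjusted p passed in 0 of them. Both had the smallest p-values of the members in the same arrays, which the alternatives reuse, so this is not separate support. Where dim probe sets were left out, Cyp1a1 stayed only through its normoxic values.

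Marker genes of fat were also lower in these hypoxic lungs. All 14 adipocyte markers had lower means in hypoxia, as did 12951 of all 25428 probe sets. At an unadjusted p under 0.05, 12 of these markers were lower, beside 3.15% of all probe sets. The median difference of the markers was -1.28. The mean log2 signal of the list was 7.58, 5.63, 7.11 and 6.51 in mice F, G, H and I, and 5.03, 5.07, 5.30 and 5.27 in mice A, B, C and D. Every normoxic mouse was above every hypoxic one. Mouse G was the lowest normoxic mouse for both Cyp2e1 and this list, but the highest was mouse H for Cyp2e1 and mouse F for the list, and the lowest hypoxic mouse was B for Cyp2e1 and A for the list. Of the 14 markers only Tshr, the receptor of thyrotropin, was at background. Fabp4, the fatty acid binding protein of adipocytes, averaged 9.11 in normoxia and 6.40 in hypoxia, and Adipoq, which encodes adiponectin, was above background on all 8 arrays. Cardiac muscle markers were likewise lower, with all 12 below normoxia on average and 7 at an unadjusted p under 0.05, beside the same 3.15%. The list means were 6.26 to 6.99 in normoxia and 5.81 to 6.04 in hypoxia. Of 14 hepatocyte markers 7 were at background, among them Alb, serum albumin, at 2.84 and 2.90, and the list means were 3.73 to 3.96 in normoxia and 3.79 to 4.03 in hypoxia. The part of fat or muscle tissue in the Cyp2e1 difference was not tested.

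**Figure D2:**
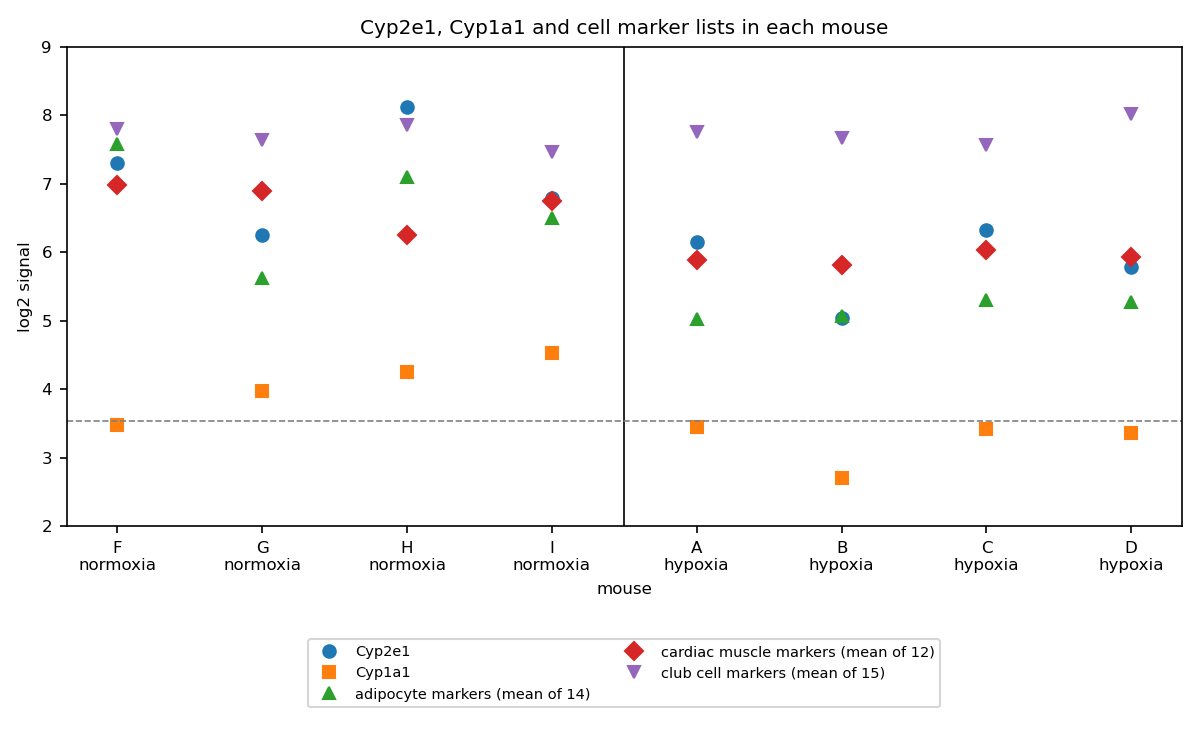
Log2 signal (vertical axis) of Cyp2e1, of Cyp1a1 and of the mean of 3 marker lists in each mouse (horizontal axis, normoxia left and hypoxia right of the solid line), with the background level of 3.54 dashed. The adipocyte list spans 5.63 to 7.58 in normoxia and 5.03 to 5.30 in hypoxia, Cyp2e1 is lowest in mouse B at 5.04, and the club cell list shows no such step (7.47 to 7.86 and 7.57 to 8.03).

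Cyp2f2, the club cell enzyme that activates naphthalene, gave the strongest signal of the members. It read 12.56, 12.56, 12.56 and 11.84 in mice F, G, H and I, and 12.77, 12.10, 12.71 and 12.15 in mice A, B, C and D. The groups overlapped throughout, with mouse I the lowest of all. The means were 12.38 ± 0.36 and 12.43 ± 0.35 (SD, n = 4 each), and the difference of 0.05 (SE 0.22) had a 95% interval of -0.44 to 0.55 (limma adjusted p = 0.968). Scgb1a1, the secretoglobin that defines club cells, differed by 0.04 in the same lungs. Other club cell markers moved in both directions, and the differences of the 15 ran from -1.39 to 1.30. At an unadjusted p under 0.05, 3 of the 15 were higher and 2 lower, beside 5.34% and 3.15% of all probe sets.

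Cyp2b10, a target of the constitutive androstane receptor and inducible by phenobarbital, read 9.03, 9.32, 9.78 and 9.13 in mice F, G, H and I and 9.12, 8.51, 9.25 and 9.50 in mice A, B, C and D. Cyp2s1, a dioxin-inducible enzyme of epithelia, read 8.67, 8.38, 8.62 and 7.98 in the normoxic mice and 8.50, 8.45, 8.84 and 8.45 in the hypoxic mice. For both genes the groups overlapped. The differences were -0.22 (SE 0.23, limma adjusted p = 0.845) for Cyp2b10 and 0.14 (SE 0.18, limma adjusted p = 0.875) for Cyp2s1, with 95% intervals of -0.73 to 0.29 and -0.26 to 0.55.

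Cyp2d22 was the only one of 9 Cyp2d genes above background. It read 6.77, 5.93, 6.55 and 5.76 in mice F, G, H and I, and 5.85, 5.44, 6.35 and 5.15 in mice A, B, C and D. The hypoxic mice A and C lay within the normoxic range while mice B and D lay below it. The difference was -0.56 (SE 0.29, 95% interval -1.19 to 0.08, limma adjusted p = 0.649). The remaining members of family 2 above background were Cyp2j6 and Cyp2j9, which epoxidise arachidonic acid, Cyp2u1, a fatty acid hydroxylase, Cyp2a22 and Cyp2w1. Their differences lay between Cyp2u1 at -0.22 and Cyp2w1 at 0.09. Over all 48 genes of family 2, 24 means were higher and 24 lower in hypoxia, the median was -0.01, and only Cyp2e1 had an unadjusted p under 0.05.

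In family 3 only Cyp3a11, a major drug-oxidising enzyme of mouse liver and a target of the pregnane X receptor, lay above background. It read 3.95, 4.24, 3.23 and 4.52 in mice F, G, H and I, and 3.37, 3.55, 3.28 and 3.24 in mice A, B, C and D. The normoxic mice F, G and I were above every hypoxic mouse, and mouse H was below them all. It was above background on 3 normoxic arrays and on 1 hypoxic array. The means were 3.98 ± 0.56 and 3.36 ± 0.14 (SD, n = 4 each), with a difference of -0.62 (SE 0.24, limma adjusted p = 0.500, exact permutation p = 0.143). The hypoxic mean lay below the background level, so the size of this difference is uncertain. Cyp3a41b had higher values in hypoxia, from 1.87, 1.71, 2.01 and 1.16 in normoxia to 2.12, 2.27, 2.85 and 1.97 in hypoxia (limma adjusted p = 0.476). All of its values were below background, so no fold is given. The median over the 8 genes of family 3 was -0.04.

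Cyp4b1 led family 4 in signal. It is a lung enzyme that activates the plant toxin 4-ipomeanol and oxidises fatty acids. It read 10.21, 10.01, 10.43 and 9.52 in mice F, G, H and I, and 9.48, 8.87, 10.25 and 9.37 in mice A, B, C and D. The hypoxic mice A, B and D were below every normoxic one, and mouse C, at 10.25, was within their range. The means were 10.04 ± 0.39 and 9.49 ± 0.57 (SD, n = 4 each), a difference of -0.55 (SE 0.28, 95% interval -1.17 to 0.07, limma adjusted p = 0.645, exact permutation p = 0.171). Without mouse C the difference was -0.80, with an adjusted p of 0.426 by limma.

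Cyp4v3, the mouse counterpart of a fatty acid hydroxylase of the human retina, averaged 6.66 ± 0.25 and 6.63 ± 0.32 (SD, n = 4 each), a difference of -0.03 with a 95% interval of -0.46 to 0.40. Cyp4f18, which hydroxylates leukotriene B4 in neutrophils, averaged 5.93 ± 0.12 and 6.01 ± 0.17 (SD, n = 4 each) and had among the narrowest spreads of the named members. Neither gene differed beyond its spread. Cyp4f39, related to the human skin enzyme that hydroxylates very long fatty acids, spread most between mice. It read 6.89, 5.76, 5.40 and 4.60 in mice F, G, H and I, and 6.62, 6.36, 6.06 and 5.01 in mice A, B, C and D. Its difference of 0.35 (SE 0.45, limma adjusted p = 0.877) became 1.01 without mice F and G (limma adjusted p = 0.340) and -0.00 without mouse I.

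Cyp4a12b belongs to the pair of genes whose enzymes form 20-hydroxyeicosatetraenoic acid, a vasoconstrictor, in mouse kidney. It read 5.32, 5.25, 5.23 and 5.50 in mice F, G, H and I, and 5.10, 5.18, 5.12 and 5.06 in mice A, B, C and D. The groups did not overlap, but the step was small, with a difference of -0.21 (SE 0.14, limma adjusted p = 0.732, exact permutation p = 0.0286). Its near-identical copy may share probes with it. Cyp4a31 was separated in the other direction, from 2.23, 2.28, 2.31 and 2.61 in normoxia to 2.72, 3.16, 2.64 and 2.72 in hypoxia (limma adjusted p = 0.452), with every value below background. In the Cyp4f subfamily 6 of 9 genes were above background, and over the 9 genes 4 means were higher and 5 lower in hypoxia.

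**Figure D3:**
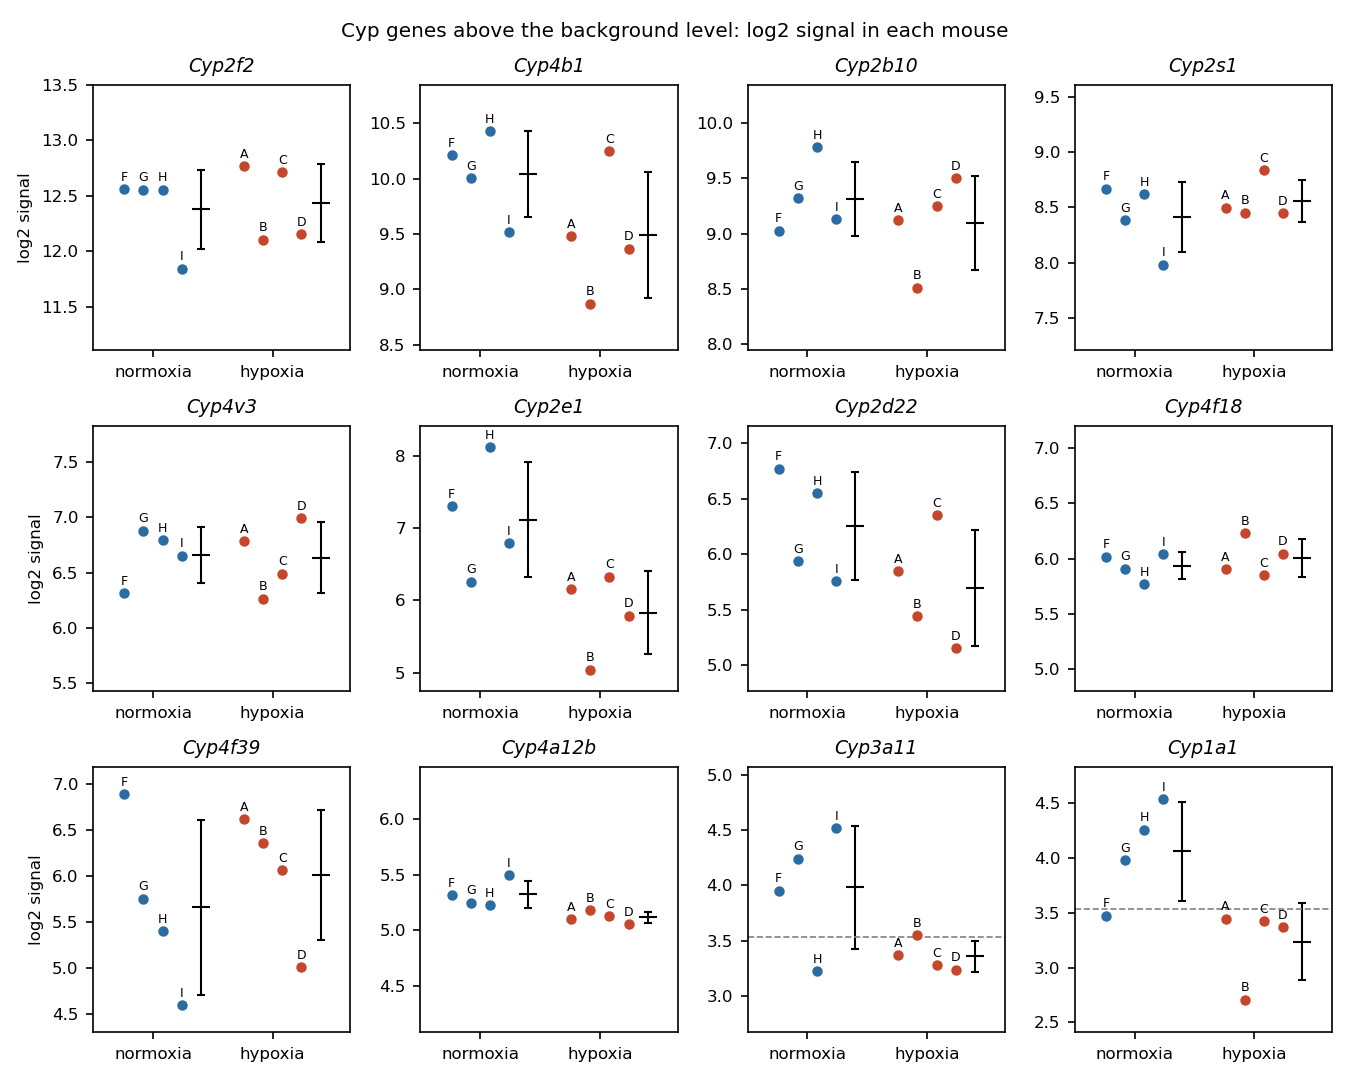
Log2 signal (vertical axis, each panel on its own scale) of the 12 named members above background in each mouse, lettered by mouse, with the mean and SD of each group of 4 in black and the background level of 3.54 dashed where it falls in the panel. Cyp1a1 and Cyp4a12b are the only panels whose groups do not overlap, and Cyp4f39 has the widest normoxic spread, from 4.60 to 6.89.

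The 57 members at background averaged between 1.64 and 3.39, with differences from -0.41 to 0.62. All 15 Cyp2c genes, a cluster on chromosome 19 whose liver enzymes oxidise drugs and arachidonic acid, were among them. So were 8 of 9 Cyp2d genes on chromosome 15, 7 of 8 Cyp3a genes on chromosome 5 and 7 of 8 Cyp4a genes on chromosome 4. One of the Cyp2c genes, Cyp2c54, had non-overlapping groups, with means of 2.73 ± 0.04 and 3.01 ± 0.13 (SD, n = 4 each, limma adjusted p = 0.621), and both means were below background. Chromosome 7 carried 14 members, of which 5 were above background, including Cyp2f2, Cyp2b10, Cyp2s1 and Cyp2e1.

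Genes that supply or follow the P450 reaction were read from 9 lists, beside the 5.34% of all probe sets that were higher and the 3.15% that were lower at an unadjusted p under 0.05, and their median of -0.00. In the aryl hydrocarbon receptor pathway, 0 of 12 genes had an unadjusted p under 0.05 in either direction and the median difference was -0.17. The receptor gene Ahr averaged 7.49 in normoxia and 7.34 in hypoxia. Aldh3a1, an aldehyde dehydrogenase induced by the receptor, had a difference of -0.91 that rested on mouse F at 9.07, against at most 7.04 in the other normoxic mice. Nqo1, a quinone reductase induced by the same receptor, differed by -0.37 (SE 0.17, limma adjusted p = 0.601). Of 9 electron donors or partner proteins of P450s, 0 were higher and 1 was lower at that threshold, with a median of -0.21. Without mouse H or A there were 2 in all. The lower one was Pgrmc1, a haem-binding partner of P450s, at -0.48 (SE 0.16, limma adjusted p = 0.401), while the reductase Por differed by 0.23. Of 13 genes of haem synthesis and breakdown 1 was higher and 0 were lower, with a median of 0.20. It was Alas2, the erythroid form of the first enzyme of haem synthesis, at 0.64 (SE 0.23, limma adjusted p = 0.441). Without mouse D the receptor pathway held 3 genes at that threshold, and without mouse A or B the haem list held 0.

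Among 12 nuclear receptors that govern P450 genes, 1 was higher and 1 lower, with a median of -0.02. Pparg, the fatty acid receptor that drives fat cell formation, had a difference of -0.99 (SE 0.23, limma adjusted p = 0.176), and Ppard one of 0.58 (SE 0.19, limma adjusted p = 0.403). All 7 flavin monooxygenases, a second family of oxygen-inserting enzymes, had lower means, as did 12951 of all 25428 probe sets. Of the 7, 3 were at background (Fmo4, Fmo6 and Fmo9), so their direction is uncertain. Only 1 of the 7 had an unadjusted p under 0.05 (2 without mouse F, 3 without mouse C). Fmo1 averaged 10.04 ± 0.23 in normoxia and 8.92 ± 0.36 in hypoxia (SD, n = 4 each), a difference of -1.12 (SE 0.20, limma adjusted p = 0.092). Of 4 epoxide hydrolases 1 was lower, namely Ephx2, which hydrolyses the epoxides that Cyp2c and Cyp2j enzymes make from arachidonic acid, at -1.20 (SE 0.29, limma adjusted p = 0.186). Ephx2 read 5.57, 4.00, 5.09 and 4.46 in mice F, G, H and I, and 3.59, 3.45, 3.52 and 3.75 in mice A, B, C and D. The hypoxic mean of 3.58 lay just above the background level of 3.54, and mice B and C lay below that level. The size of the Ephx2 difference is therefore uncertain. The normoxic order of Ephx2, with F highest and G lowest, was that of the adipocyte list, whose part in it was not tested.

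Of 21 measured glutathione transferases 0 were higher and 4 lower, with a median of -0.22. They were Gstz1 at -0.78, Mgst1 at -0.51, Mgst2 at -0.47 and Gstm3, which was below background on all hypoxic arrays and at least 1.62-fold lower there against the background level. The count was 7 without mouse H or without mouse A. Of 18 glucuronosyl and sulfotransferases 1 was higher and 4 were lower, with a median of -0.15. Of these 18 genes 12 were at background, among them the higher one (Sult1c1) and 2 of the lower ones (Ugt1a1 and Ugt2a1). The lower genes above background were Sult1d1 at -1.41 and Sult1a1 at -0.58, and the count of 5 was 3 without mouse F, G, B or C. The 21 genes of other P450 families, which serve steroid, vitamin and bile acid metabolism, held 0 higher and 1 lower gene with a median of -0.01. The lower one was Cyp46a1, the cholesterol 24-hydroxylase, at -0.35, and the count was 0 without mouse G, I, A or B and 2 without mouse H or D. No gene of these lists passed after adjustment.

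**Figure D4:**
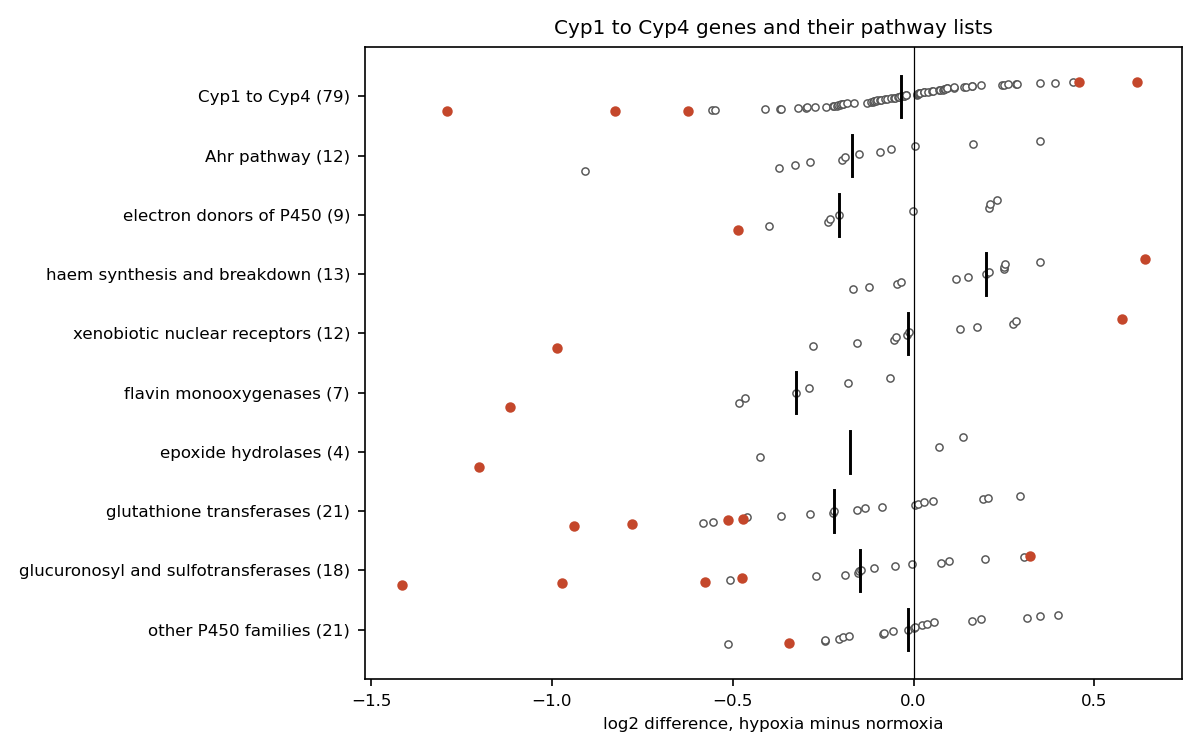
Log2 difference (hypoxia minus normoxia, horizontal axis) of every measured gene of the Cyp1 to Cyp4 families and of 9 lists of related genes (vertical axis, number of genes in brackets), filled red where the unadjusted limma p was under 0.05, with a black bar at each list's median. The medians run from -0.33 for the flavin monooxygenases to 0.20 for haem synthesis and breakdown.

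Markers of epithelial, immune and stromal cells were read to check which cells the lobes held, again beside the shares of all probe sets at an unadjusted p under 0.05, which were 5.34% upwards and 3.15% downwards. Of 15 club cell markers 3 had higher and 2 had lower means when taken at an unadjusted p under 0.05. Over the 15, 8 means were higher and 7 lower. The differences ran from -1.39 for Bpifa1, a secreted airway protein (limma adjusted p = 0.145), up to 1.30. Scgb1a1 lay between 13.03 and 13.37 on all arrays. Of 11 alveolar type 2 markers 2 were higher and 0 lower at that threshold (4 in all without mouse H, 1 without mouse A), both with separated groups, and the list means were 10.16 to 10.58 in normoxia and 10.49 to 10.77 in hypoxia. Ciliated cell markers had 0 of 12 at that threshold (2 without mouse H, 1 without mouse A). Of 11 B cell markers 10 had lower means, 7 of them at the threshold (4 without mouse F, without H or without B), with list means of 5.09 to 6.40 in normoxia and 4.77 to 5.10 in hypoxia. Of 12 smooth muscle and pericyte markers 10 had higher means in hypoxia, 6 of them at an unadjusted p under 0.05 (3 without mouse B). Of 13 fibroblast markers 5 were higher and 2 lower at that threshold, with list means of 8.07 to 8.41 in normoxia and 8.43 to 8.85 in hypoxia that did not overlap. Macrophage markers had 8 of 13 means higher, with 3 higher and 2 lower at that threshold (2 in all without mouse I). Neutrophil markers had 2 of 12 higher and 1 lower at it (5 in all without mouse H or C). Alveolar type 1 markers had 3 of 12 higher and 0 lower, and endothelial markers 2 of 14 higher and 2 lower. The part of these shifts in the differences of the P450 genes was not tested.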

How the data were processed

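The deposited file held log2 values of 8 GeneChip Mouse Gene 2.0 ST arrays. Per the study's methods the authors summarised the arrays with a custom chip definition, version 22, that gives 1 probe set per Entrez gene, and applied quantile normalization. RMA is named in the notes of the submitters, with no version given. Which arrays were normalized together, and whether probes shared by near-identical genes were dropped, is not given in the sources used here. Array medians were 4.17 to 4.20, and 25269 of 25428 probe sets could be named (25237 by Entrez ID in RefSeq, 32 by the platform table).

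All probe sets were fitted with limma 3.58.1 (lmFit, eBayes) in R 4.3.3, hypoxia minus normoxia, with Benjamini-Hochberg adjustment over all of them and a threshold of 0.05, after the script was tested on simulated data. Two-sided exact permutation tests (70 assignments) and tables used Python 3.11.15, pandas 2.3.3 and scipy 1.17.1, and plots matplotlib 3.10.9. The methods' own test, without moderation of the variance, was an alternative, as were renormalization, centring, a filter on dim probe sets, a variance trend, array weights and leaving out mice. The background was the 95th percentile of the chemoreceptor probe sets. Named members were the 4 markers Cyp1a1, Cyp1b1, Cyp2f2 and Cyp4b1, the 10 with the highest mean signal, and those with an unadjusted p under 0.05 or separated groups. For each list up to 3 genes with the smallest p could be named, and others named were chosen after their values were seen. Members and lists were chosen with earlier results of these data known. The labels name separate mice, with 1 array per mouse, and the letters pair no mice across groups. The number of arrays limits the precision.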

Additional observations from a re-analysis of the deposited data

Results flagged for a closer look

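Of 32 sets of 4 values (16 named members in 2 groups), 4 held a mouse that stood far from the other 3. Chance alone flags about 1 in 20 such sets. Cyp1a1 was 2.71 in the hypoxic mouse B, against 3.37 to 3.45 in the other hypoxic mice. Cyp2f2 was 11.8 in the normoxic mouse I, against 12.56 in each of the others. Cyp2s1 was 8.84 in the hypoxic mouse C, against 8.45 to 8.50. Cyp4a31 was 3.16 in the hypoxic mouse B, against 2.64 to 2.72, all below background.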

How the results depend on the processing

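No member passed after adjustment in any of 15 alternative analyses, and the smallest adjusted p among the named members was 0.116 (Cyp3a11). The number of members at an unadjusted p under 0.05 was 5 of 79 in the main analysis, 3 of the 22 left without dim probe sets (10.1% of all 15888 probe sets left), 5 to 8 when 1 mouse was left out (8 without mouse G) and 11 without mice F and G, an analysis added after seeing the data. Of the 3, Cyp1a1 and Cyp3a11 passed that filter only through their normoxic values. The number with separated groups was 4 of 79, against 2 of 22 without dim probe sets (5.75% of all), 5 to 8 with 1 mouse left out (8 without G, 7 without H) and 16 without F and G. Groups of fewer mice are separated more easily by construction. The median over the members was -0.03, against 0.024 without F and G. Over members above background it was -0.10, between -0.15 and -0.043 with 1 mouse left out, beside 0.0038 over all probe sets above background. Among these members, the hypoxic means of Cyp1a1 and Cyp3a11 and the normoxic mean of Cyp4f16 lay below background. The filter itself thus bears on this median. Of 16 named members, 12 kept their direction throughout. Some were named for their p or separation in these same arrays, so this is not separate support. For the 4 with separated groups, leaving out mice could not turn the direction. Of the 12, Cyp1b1, Cyp2c54, Cyp3a41b and Cyp4a31 were at background. Cyp2f2 turned to -0.10 after a second quantile normalization and to -0.032 with array weights, and ran from -0.12 to 0.16 with 1 mouse left out. Leaving out 1 mouse also gave -0.15 to 0.10 for Cyp4v3, -0.0019 to 0.12 for Cyp4f18 and -0.0038 to 0.76 for Cyp4f39. The causes were not tested. Cyp2e1 stayed between -1.63 and -0.96 and Cyp1a1 between -1.16 and -0.65. Over all probe sets, 0 passed in the main analysis, 45 of 15888 without dim probe sets, 12 with a variance trend, 22 with array weights, 23 without G, 14 without H, 33 without C and 4 without F and G. Counts of list genes at an unadjusted p under 0.05 ran from 0 to 3 for the aryl hydrocarbon receptor pathway, 2 to 7 for glutathione transferases, 1 to 3 for flavin monooxygenases, 2 to 5 for glucuronosyl and sulfotransferases, 3 to 9 for B cell markers, 3 to 7 for smooth muscle and pericyte markers and 10 to 13 for adipocyte markers. Signal over background limits the 57 members at background, and Cyp1a1 and Cyp3a11 in hypoxia. No paired analysis was possible because the letters of the mice are not shared between the groups.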
